A study of Homo sapiens with 12 samples.

Results

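Transcript levels of 5 genes of the SMN complex, SMN1, SMN2, GEMIN2, GEMIN4 and GEMIN5, were examined among the 25733 genes of the deposited expression table. The genes were chosen on the FPKM of SMN1, which was lower in every treated group than in control. SMN2 joined them as the near-identical copy of SMN1, and the Gemin genes as its partners. FPKM is the number of fragments on a gene, scaled by its exon length and by a scale factor for each library. The libraries came from HCT116, an established human colon cancer cell line, in 4 groups of 3 libraries. Control cells had no treatment. The other groups received the cytokine TGF-β, the ammonia source NH4Cl, or both. The labels name only the agents, and the sequencing methods add the NH4Cl dose of 10 mM. The general culture methods give 24 h for NH4Cl alone. For TGF-β they give 200 pM for 1 h, following NH4Cl or vehicle for 1 h less than those 24 h. That the sequenced cells were treated in this way is an assumption. Each library held between 14807630 and 18191998 reads on genes, with a median of 15484798.

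The SMN complex builds the RNA and protein particles of the spliceosome. In the cytoplasm it loads a ring of Sm proteins onto small nuclear RNAs, and the particles then return to the nucleus, where SMN also gathers in Cajal bodies. Loss of SMN1 causes spinal muscular atrophy, and SMN2 compensates only in part because most of its transcripts lack exon 7. SMN1 and SMN2 both encode SMN, the core of the complex. GEMIN2 binds SMN and holds Sm proteins, GEMIN4 sits on the helicase made by DDX20, and GEMIN5 recognises the small nuclear RNA.

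SMN1 (ENSG00000172062) lies on the plus strand at chr5:70925030-70953942 of GRCh38, and SMN2 (ENSG00000205571) lies on the same strand at chr5:70049612-70078522. One annotated transcript of each gene, both from GENCODE release 29, has 9 exons and 1536 bases. Over this pair, 99.9% of bases were identical and 2 differed. The substitution C6T is in the coding part of exon 7, and G236A is in the untranslated part of exon 8. In both, the SMN1 base comes first, and positions count from 1 at the 5′ end of the exon. Exon 7 is shown because it holds the coding difference between the copies. Each copy is given 5′ to 3′ on the plus strand, with the differing base in capitals, from chr5:70951941-70951994 for SMN1 and chr5:70076521-70076574 for SMN2.
SMN1 exon 7: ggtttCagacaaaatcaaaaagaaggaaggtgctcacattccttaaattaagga
SMN2 exon 7: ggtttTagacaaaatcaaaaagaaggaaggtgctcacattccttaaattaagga

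A read can be placed on 1 copy by sequence only where it covers a differing base. Of all windows of 100 bases along this transcript pair, 13.9% covered one, and of windows of 150 bases, 21.6% did. The read length and the handling of reads that match both copies are not given in the sources used here. GENCODE lists 11 transcripts for SMN1 and 16 for SMN2, so these shares describe the compared pair and not every transcript. The exons of SMN1, SMN2, GEMIN2 and GEMIN5 overlap no exon of another gene. GEMIN4 shares 158 exonic bases with DBIL5P on the opposite strand. Among the partner genes tested below, GEMIN7 shares 90 exonic bases with MARK4 and 103 with PPP1R37 on the same strand. On the opposite strand it shares 285 with GEMIN7-AS1, and DDX20 shares 124 with AL049557.1 and 293 with AL049557.2.

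The FPKM of SMN1 in control was 13.8 in replicate 1, 6.77 in replicate 2 and 17.3 in replicate 3. With TGF-β it was 3.73, 3.55 and 2.95 in the same order, and with NH4Cl it was 3.20, 3.34 and 4.02. With both agents it was 3.15, 2.79 and 3.78. All 3 control libraries were above all 9 treated libraries, and the 3 treated groups overlapped each other. Group means were 12.6 ± 5.34 FPKM in control, 3.41 ± 0.408 with TGF-β, 3.52 ± 0.439 with NH4Cl and 3.24 ± 0.504 under both agents (SD, n = 3). The differences between the 3 treated means were smaller than these spreads. In RNA from whole cultures, fewer cells with a transcript and less of it per cell cannot be told apart.

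The control libraries were far apart for SMN1. Its coefficient of variation over the 3 controls was 42.4%, against a median of 9.86% over the 12341 genes with a mean of at least 1 FPKM, and 3.96% of those genes varied at least as much. The same coefficient was 5.36% for SMN2, 7.09% for GEMIN2, 15.5% for GEMIN4 and 23.1% for GEMIN5. Control replicate 2 was the lowest of the 3, and its SMN1 level was 1.91 times that of the TGF-β library with the same number. For replicate 3 that ratio was 5.84, and for replicate 1 it was 3.69. The size of the SMN1 difference therefore depended on which control library was used.

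SMN2 showed another pattern. Its FPKM in control was 2.94, 3.00 and 3.25 in replicates 1 to 3, and with TGF-β it was 3.95, 3.19 and 2.35. With NH4Cl it was 3.14, 3.64 and 2.76, and with both agents 3.92, 3.26 and 2.86. In each treated group SMN2 had values above and below the control range. Group means were 3.06 ± 0.164 FPKM in control, 3.17 ± 0.798 with TGF-β, 3.18 ± 0.442 with NH4Cl and 3.35 ± 0.538 under both agents (SD, n = 3). The 4 means differed by less than the SD of any treated group.

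Because reads may be divided between the copies in more than 1 way, their FPKM was also added up. The sum in control was 16.7, 9.76 and 20.5 FPKM in replicates 1 to 3, and with TGF-β it was 7.68, 6.75 and 5.31. With NH4Cl the sum was 6.34, 6.98 and 6.78, and with both agents 7.07, 6.05 and 6.64. The lowest control sum was above the highest treated sum, and the treated groups overlapped. Mean sums were 15.7 ± 5.45 FPKM in control, 6.58 ± 1.20 with TGF-β, 6.70 ± 0.326 with NH4Cl and 6.59 ± 0.512 under both agents (SD, n = 3). The control mean was 2.38 times the TGF-β mean, 2.34 times the NH4Cl mean and 2.38 times the combined mean. The same ratios for SMN1 alone were 3.69, 3.58 and 3.89, and for SMN2 alone 0.968, 0.963 and 0.915. The difference from control was present in the sum for each treated group. The sum includes the SMN1 values on which the gene was chosen, so it is a description and no separate check.

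**Figure D1:**
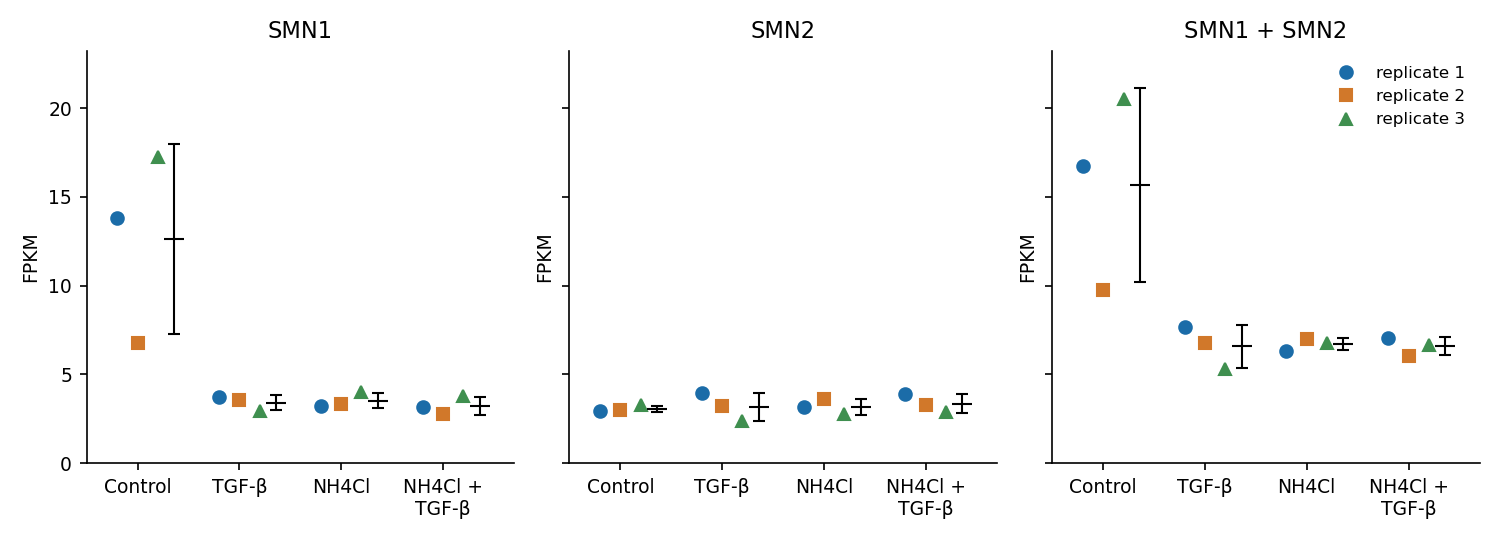
FPKM of SMN1, SMN2 and their sum in each of the 12 libraries, by group; markers give the replicate number, and bars give the mean ± SD of 3 libraries. The 3 control libraries stand above the 9 treated ones for SMN1 and for the sum, with control replicate 2 the lowest control, and SMN2 lies between 2.35 and 3.95 FPKM throughout.

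On the log2 scale, after adding 1 to FPKM, SMN1 differed from control by -1.54 with TGF-β, -1.51 with NH4Cl and -1.60 under both agents. SMN2 differed by 0.019, 0.036 and 0.091, and the sum by -1.09, -1.06 and -1.08. These values describe the contrasts on which SMN1 was chosen, so no test is given for them. The 3 comparisons share the control libraries and are not independent of each other. Without control replicate 2 the NH4Cl difference of SMN1 was -1.87, and without control replicate 3 it was -1.25. The corresponding values for the sum were -1.34 and -0.84.

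Reads were recovered from FPKM, a scale factor for each library and the length of each gene's combined exons. These exons span 3097 bases for SMN1 and 3011 for SMN2. SMN1 had 723, 360 and 792 reads in control replicates 1 to 3, and between 132 and 215 in the treated libraries. SMN2 had 150, 155 and 145 reads in control, and between 103 and 221 in the treated libraries. The control libraries thus held more reads on SMN1 with a like number on SMN2. As a share of the reads of both copies, SMN1 took 82.8% (80.2 to 85.2) in control replicate 1, 69.9% (65.8 to 73.7) in replicate 2 and 84.5% (82.1 to 86.7) in replicate 3, with 95% Wilson intervals. With TGF-β the share was 49.3% (44.6 to 53.99), 53.4% (47.8 to 58.8) and 56.4% (49.98 to 62.5). With NH4Cl it was 51.2% (45.5 to 56.8), 48.6% (43.4 to 53.8) and 60.0% (54.4 to 65.4), and with both agents 45.2% (40.0 to 50.5), 46.8% (41.1 to 52.6) and 57.7% (52.4 to 62.8). The shares rest on the same values that chose SMN1, so they are a description. The intervals cover counting error only. Over the 9 treated libraries the mean share was 52.1 ± 5.12% (SD), near an even division, and over the 3 controls it was 79.1 ± 7.99%.

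**Figure D2:**
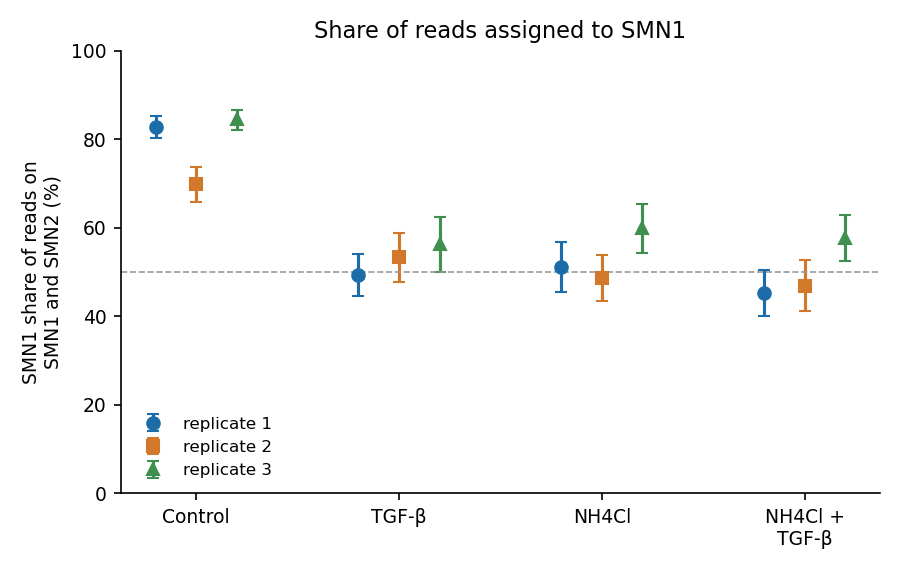
Share of the reads on SMN1 and SMN2 that were assigned to SMN1 (%), in each library by group; bars give 95% Wilson intervals, and the dashed line marks an even division. Treated libraries range from 45.2% to 60.0%, and control libraries from 69.9% to 84.5%.

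As CPM, the read count scaled by library size alone, both copies together stood at 48.2 ± 15.6 in control, 20.2 ± 4.22 with TGF-β, 20.7 ± 1.08 with NH4Cl and 20.2 ± 1.58 under both agents (SD, n = 3). The contrast of control with treated libraries is the one by which SMN1 was chosen, so its place among other genes is also only a description. Among the 12341 genes, SMN1 ranked 1 by the log2 difference between the mean of the controls and the mean of the treated libraries, at 1.55. The next gene was TRDD3 at 1.20. The gap between the lowest control and the highest treated library was 0.63 for SMN1 on this scale, and the next widest gap was 0.13, for SDSL. All 3 controls stood above all 9 treated libraries in 33 of the 12341 genes, or 0.267%. SMN1 was among them through its choice, and none of the other 9 genes of the complex was.

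SMN1 was not chosen on differences between treated groups, so comparisons that leave out the control libraries were tested. The treated values of SMN1, and so of the sum, did enter the choice, as the gene was low in every treated group. A small difference between treated groups is therefore no separate result for them. The combined group against NH4Cl asks what TGF-β added to NH4Cl, and the combined group against TGF-β asks what NH4Cl added to TGF-β. A linear model (limma) was fitted over all 12341 genes, with p-values adjusted over all of them and a threshold of 0.05. Replicate numbers paired the libraries across groups, so a second limma fit took the number as a block and compared libraries within it. The labels do not say whether replicates were separate cultures, so p-values measure only the spread between libraries.

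For SMN1, the log2 fold change of the combined group was -0.095 against NH4Cl (SE 0.251, limma adjusted p 1.00), lower in 3 of 3 replicates. Against TGF-β it was -0.060 (SE 0.251, limma adjusted p 0.955), lower in 2 of 3 replicates. For SMN2 it was 0.054 against NH4Cl (SE 0.141, limma adjusted p 1.00) and 0.072 against TGF-β (SE 0.141, limma adjusted p 0.897), each higher in 2 of 3 replicates. Neither copy passed the threshold in these comparisons, with or without the block. The SE of SMN1 pools the spread of all 4 groups, the widely spread controls included, so it also rests on the values that chose the gene. With only the compared groups in the fit, the limma adjusted p of SMN1 was 1.00 against NH4Cl and 0.924 against TGF-β. With both copies as 1 gene, the sum gave -0.023 against NH4Cl (SE 0.210, limma adjusted p 1.00), lower in 2 of 3 replicates. Against TGF-β the sum gave 0.011 (SE 0.210, limma adjusted p 0.990), higher in 1 of 3 replicates. The sum passed the threshold in neither fit.

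The other genes of the complex show whether the machinery around SMN differed too. GEMIN2 (ENSG00000092208) lies at chr14:39114223-39136973 on the plus strand, GEMIN4 (ENSG00000179409) at chr17:744414-753999 on the minus strand and GEMIN5 (ENSG00000082516) at chr5:154887416-154938209 on the minus strand. In control, GEMIN2 stood at 4.56, 5.26 and 4.97 FPKM in replicates 1 to 3, and with TGF-β at 4.68, 4.71 and 4.59. With NH4Cl it stood at 4.82, 5.48 and 5.20, and with both agents at 5.55, 5.67 and 5.21. The combined group was wholly above the TGF-β group and overlapped the control and NH4Cl groups. How many of all genes had 2 groups apart in this way is not given, here and below, so this is a description. Group means were 4.93 ± 0.349 FPKM in control, 4.66 ± 0.0615 with TGF-β, 5.17 ± 0.335 with NH4Cl and 5.48 ± 0.238 under both agents (SD, n = 3).

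GEMIN4 was the most abundant of the 3 Gemin genes. Its FPKM in control was 21.4, 21.7 and 16.3 in replicates 1 to 3, with TGF-β 21.1, 22.0 and 18.6, with NH4Cl 22.0, 21.7 and 16.2, and with both 20.8, 23.4 and 15.7. Replicate 3 was the lowest in every group, and all 4 groups overlapped. Mean FPKM was 19.8 ± 3.06 in control, 20.6 ± 1.79 with TGF-β, 20.0 ± 3.27 with NH4Cl and 20.0 ± 3.93 under both agents (SD, n = 3). GEMIN5 had the same low replicate 3. Its FPKM in control was 10.2, 10.2 and 6.58, with TGF-β 9.56, 9.62 and 7.47, with NH4Cl 9.33, 8.68 and 5.76, and with both 8.58, 9.34 and 6.35. Within each replicate number the NH4Cl library was below the control library, while the groups overlapped. Mean FPKM was 8.98 ± 2.07 in control, 8.88 ± 1.23 with TGF-β, 7.92 ± 1.90 with NH4Cl and 8.09 ± 1.55 under both agents (SD, n = 3).

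**Figure D3:**
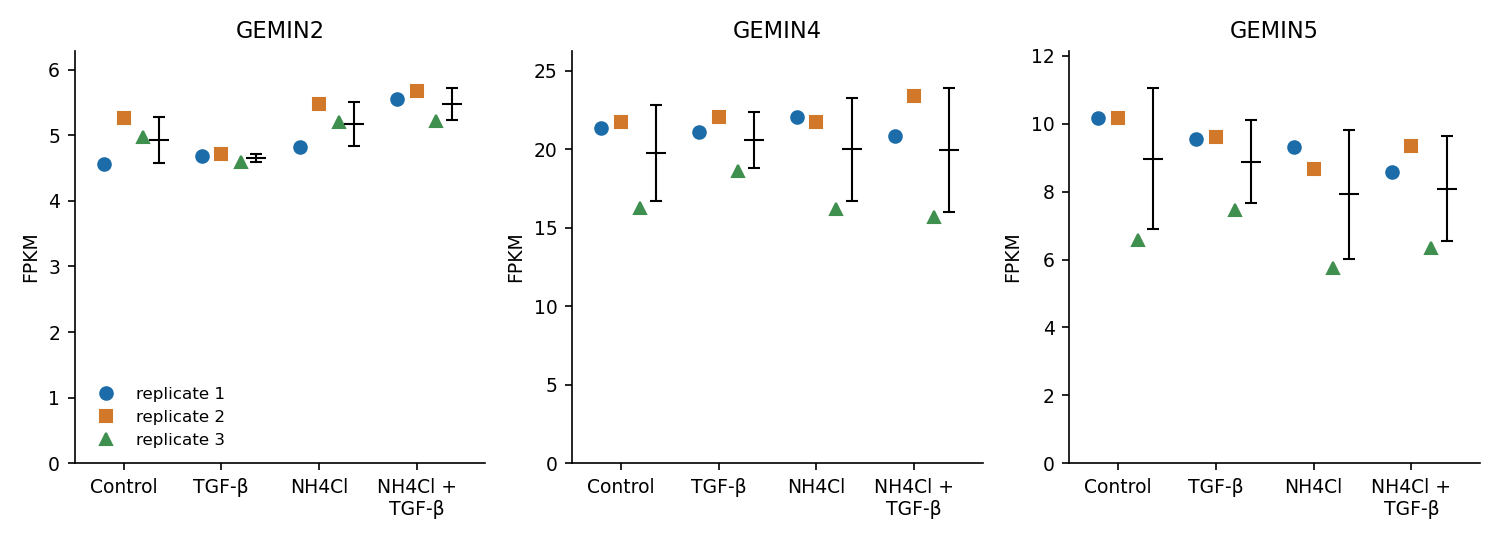
FPKM of GEMIN2, GEMIN4 and GEMIN5 in each of the 12 libraries, by group; markers give the replicate number, and bars give the mean ± SD of 3 libraries. Replicate 3 is the lowest library of every group for GEMIN4 and GEMIN5, and the GEMIN2 values with both agents, 5.21 to 5.67, lie above those with TGF-β alone, 4.59 to 4.71.

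All 8 partner genes of the complex were tested, namely GEMIN2 and GEMIN4 to GEMIN8, the helicase gene DDX20 and STRAP, whose product binds the complex. Without the block, limma called 0 of the 8 with NH4Cl against control, beside 0.381% of all genes tested. It called 0 of 8 with TGF-β against control, beside 0% of all genes, and 0 of 8 with both against control, beside 0.948%. In the combined group it called 0 of 8 against NH4Cl, beside 0%, and 0 of 8 against TGF-β, beside 1.03%. At an unadjusted p under 0.05, limma gave 0 of the 8 in each of the first 4 comparisons and 2, GEMIN2 and GEMIN7, in the combined group against TGF-β. Of all 12341 genes, 1333 had an unadjusted p under 0.05 with NH4Cl, 103 with TGF-β and 1618 with both against control. Among cells given both agents, 165 had one against NH4Cl and 1642 against TGF-β. No partner gene passed in this fit, and few genes did so anywhere in the table.

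The replicate block raised the number of calls over all genes. With it, limma called 13.6% of all genes with NH4Cl against control, 0.0081% with TGF-β against control and 18.4% with both against control. In the combined group with the block, it called 0.0081% against NH4Cl and 18.8% against TGF-β. These shares, here and below, count calls in either direction. With the block, limma called 916 genes higher and 758 lower with NH4Cl against control, and 1315 and 959 with both against control. In the combined group against TGF-β it called 1275 higher and 1047 lower. Of the 8 partner genes it called 0 in each of the first 4 comparisons and 1 in the last. The 1 gene was GEMIN2, with a log2 fold change of 0.19 in the combined group against TGF-β, higher in 3 of 3 replicates. The limma adjusted p of GEMIN2 was 0.0265 with the block (SE 0.0508) and 0.218 without it (SE 0.0643). A block fitted without any library numbered 3, which was added once the data had been seen, gave GEMIN2 0.22 with an adjusted p of 0.0736. Over all settings apart from leaving out single libraries, the adjusted p of GEMIN2 ran from 0.0265 to 0.574.

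GEMIN2 did not pass in the other comparisons. Against control, its log2 fold change was 0.056 with NH4Cl (limma adjusted p 0.858) and 0.13 in the combined group (limma adjusted p 0.448), each higher in 3 of 3 replicates. GEMIN5 had the lowest log2 fold change of the partner genes with NH4Cl against control, -0.16, lower in 3 of 3 replicates. Its limma adjusted p was 0.881 (SE 0.205) without the block and 0.108 (SE 0.0606) with it. GEMIN4 stayed within 0.062 of zero in either direction on the log2 scale, at 0.013 with NH4Cl, 0.062 with TGF-β and 0.0054 with both against control. GEMIN7, a small subunit, had a log2 fold change of 0.19 in the combined group against TGF-β, with a limma adjusted p of 0.278 without the block and 0.0735 with it.

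Medians over the 8 partner genes were small on the log2 scale. With NH4Cl against control the median was 0.027, with single genes from -0.16 to 0.070, and with TGF-β it was -0.034, from -0.12 to 0.062. With both against control it was 0.025, from -0.13 to 0.13. The median of the combined group was 0.0098 against NH4Cl, from -0.031 to 0.072, and 0.013 against TGF-β, from -0.13 to 0.19. Medians over all 12341 genes lay between -0.0017 and 0.0015 in these 5 comparisons. The SMN1 differences from control, -1.51 to -1.60, were outside the ranges of the partner genes. SMN1 was chosen on those differences, so this is a description only. Whether the NH4Cl difference depended on TGF-β was tested as an interaction, and for each of the 8 the limma adjusted p was 1.00 without the block and 0.992 with it. Levels in the rest of the complex ran over the 12 libraries from 3.30 to 4.72 FPKM for DDX20, 3.88 to 5.22 for GEMIN6, 8.37 to 11.5 for GEMIN7, 7.81 to 9.08 for GEMIN8 and 146 to 165 for STRAP.

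**Figure D4:**
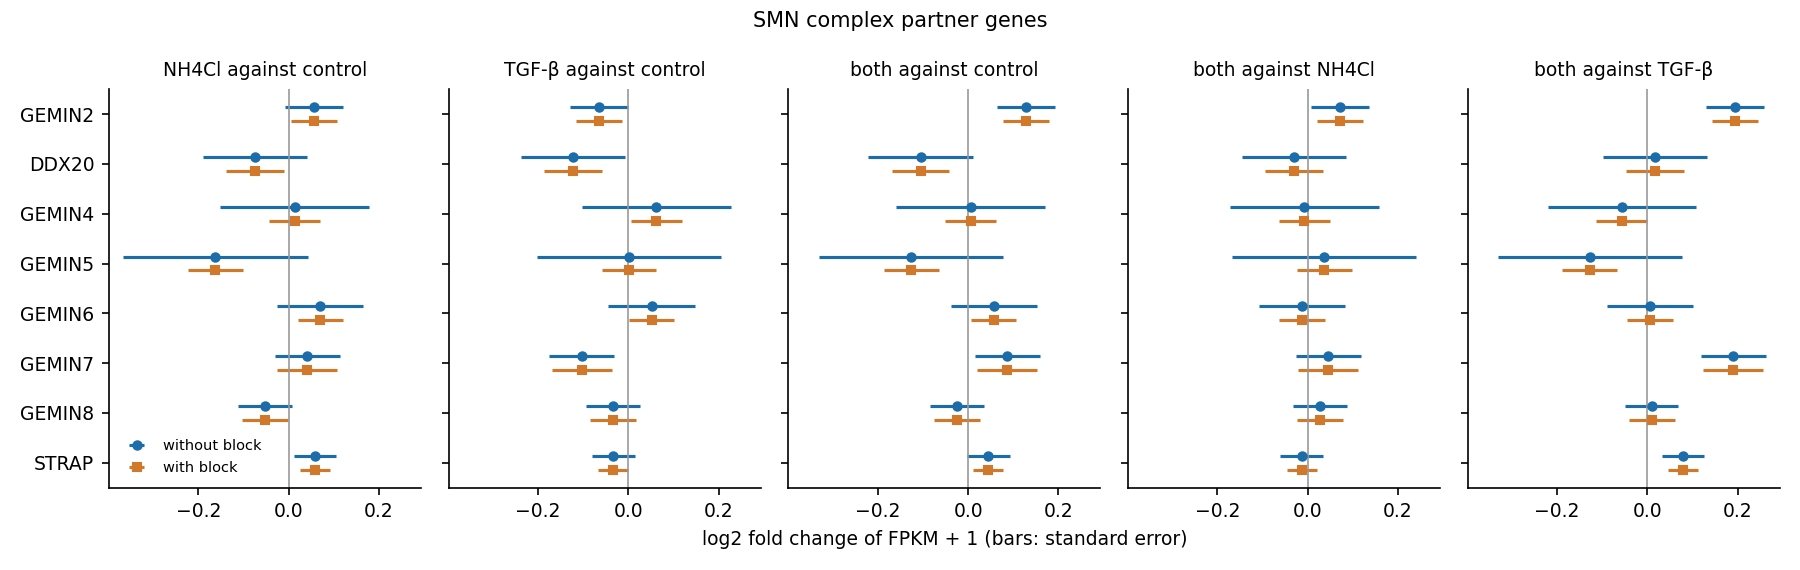
Log2 fold changes of the 8 partner genes in 5 comparisons, from limma on log2 of FPKM + 1; circles are without and squares with the replicate block, and bars give the standard error. GEMIN2 in the combined group against TGF-β, at 0.19, is the value past the threshold, and only with the block.

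Other steps of particle assembly were taken from lists drawn up from general knowledge. Without the block, limma called 0 genes of any list in any of the 5 comparisons, where it called between 0% and 1.03% of all genes. At an unadjusted p under 0.05, the counts there with NH4Cl against control were 0 of 9 Sm protein genes, 1 of 6 Sm methylation genes, 0 of 7 genes of small nuclear RNA export, capping and import, 1 of 5 U1 and U2 protein genes, 0 of 5 Cajal body genes, 1 of 10 regulators of exon 7 splicing and 1 of 3 genes of SMN protein turnover, beside 1333 of all 12341 genes. They were the same numbers with both against control, beside 1618 of all genes. In the combined group against TGF-β they differed only in the regulators of exon 7 splicing, at 0 of 10, beside 1642 of all genes. With TGF-β against control and in the combined group against NH4Cl, all these counts were 0. With the block, 0 genes of any list were called with TGF-β against control or in the combined group against NH4Cl. The counts with the block in the remaining comparisons follow by role.

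The Sm proteins form the ring that SMN loads, and 0 of their 9 genes were called in any comparison with the block. Their median log2 fold change was -0.018 with NH4Cl and 0.036 under both agents against control. Methylation of Sm proteins, which prepares them for SMN, is carried out by PRMT5 with its partner WDR77. With the block, limma called 1 of 6 methylation genes lower with NH4Cl against control, 2 lower with both against control and 1 lower in the combined group against TGF-β. These counts of 6 stand beside 13.6%, 18.4% and 18.8% of all genes called in either direction. Of the 12341 genes, 758, 959 and 1047 were called lower. WDR77 was the gene called each time. Its FPKM was 13.1, 11.95 and 9.31 in control, 13.7, 12.1 and 8.75 with TGF-β, 10.1, 9.73 and 7.92 with NH4Cl and 10.7, 9.31 and 7.60 under both agents. The groups overlapped through replicate 3, but within each number both NH4Cl libraries were below the other 2. With NH4Cl against control the WDR77 log2 fold change was -0.28, with a limma adjusted p of 0.00726 with the block and 0.650 without it, lower in 3 of 3 replicates. Over all settings but leaving out single libraries it ran from 0.00726 to 0.953. PRMT5 passed only with both against control, at -0.15, with a limma adjusted p of 0.0330 with the block and 0.255 without it, lower in 3 of 3 replicates.

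SNRPA1, a protein of the U2 particle, had the highest log2 fold change among the assembly lists. Its FPKM was 29.5, 27.0 and 36.2 in control, 28.5, 26.4 and 34.6 with TGF-β, 37.4, 36.1 and 45.4 with NH4Cl and 42.3, 36.6 and 44.6 under both agents. Only the lowest NH4Cl library, at 36.1, was below the highest control library, and the combined group was wholly above control and TGF-β. The share of all genes with groups apart in this way is not given. With NH4Cl against control the log2 fold change was 0.35, with a limma adjusted p of 0.00128 with the block and 0.356 without it, and the highest under any setting but leaving out single libraries was 0.458. With both against control it was 0.41, with a limma adjusted p of 4.61e-04 with the block and 0.217 without it. In the combined group against TGF-β it was 0.46, with a limma adjusted p of 2.84e-04 with the block and 0.169 without it, and without the block but after scaling libraries to equal sums it was 0.47 with a limma adjusted p of 0.0472. SNRPA1 was higher in 3 of 3 replicates in all 3 comparisons. It was the 1 gene of 5 on the U1 and U2 list called with the block in each of them, beside 13.6%, 18.4% and 18.8% of all genes, and the medians of that list were 0.048, -0.00045 and -0.0093.

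The export, capping and import list had 0 of 7 genes called with NH4Cl against control with the block, 1 lower with both against control and 1 lower in the combined group against TGF-β, beside 13.6%, 18.4% and 18.8% of all genes. NCBP1, a subunit of the cap-binding complex, was that gene. Its log2 fold change was -0.17 with both against control, with a limma adjusted p of 0.0407 with the block and 0.503 without it, lower in 3 of 3 replicates. Of the 5 Cajal body genes, 0 were called with the block in any comparison, with a median log2 fold change of 0.050 with NH4Cl against control. For SMN protein turnover, 3 of 4 genes had enough signal to be tested, and the ubiquitin ligase gene MIB1 was called higher with the block in NH4Cl against control, both against control and the combined group against TGF-β, where 13.6%, 18.4% and 18.8% of all genes were called. MIB1 stood at 12.03, 12.9 and 13.9 FPKM in control and at 15.2, 14.9 and 16.8 with NH4Cl. These 2 groups did not overlap, and the share of all genes for which that holds is not given. Its log2 fold change was 0.25, with a limma adjusted p of 0.0201 with the block and 0.354 without it, higher in 3 of 3 replicates.

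Splicing of exon 7 is governed by proteins that bind in and around it, and the C6T substitution in the printed sequences lies in such a stretch. SRSF1 and TRA2B favour inclusion of exon 7, and HNRNPA1 favours its loss. With the block, limma called 3 of the 10 regulators lower with NH4Cl against control, 3 lower with both against control and 2 lower in the combined group against TGF-β, beside 13.6%, 18.4% and 18.8% of all genes called in either direction. HNRNPA1 stood at 309, 302 and 340 FPKM in control, 297, 301 and 331 with TGF-β, 271, 264 and 296 with NH4Cl and 285, 275 and 287 under both agents. All control libraries were above all libraries with NH4Cl, alone or combined. The share of all genes with libraries apart in this way is not given, so it is a description. With NH4Cl against control its log2 fold change was -0.19, with a limma adjusted p of 0.00661 with the block and 0.317 without it, lower in 3 of 3 replicates. TRA2B gave -0.16 there, with a limma adjusted p of 0.0269 with the block and 0.801 without it, lower in 3 of 3 replicates. HNRNPM gave -0.21, with a limma adjusted p of 0.0208 with the block and 0.863 without it, lower in 3 of 3 replicates. The median over the 10 was -0.11 with NH4Cl, -0.031 with TGF-β and -0.11 with both, each against control. The FPKM table holds no exon counts, so inclusion of exon 7 itself was not measured.

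**Figure D5:**
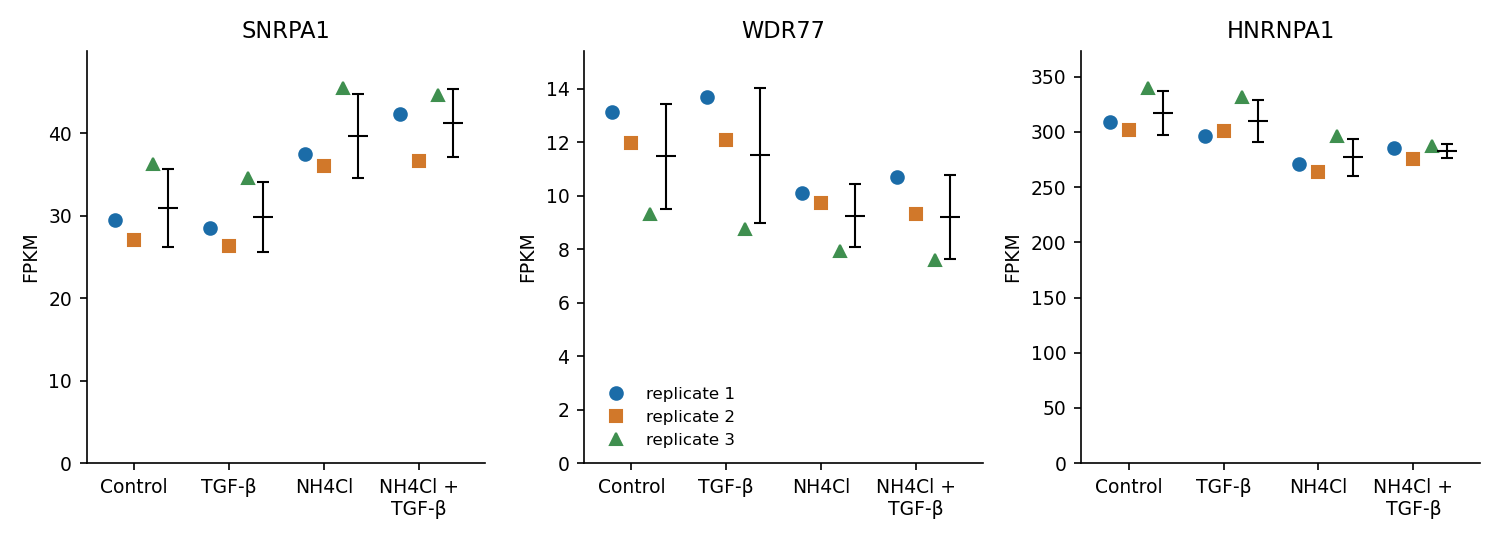
FPKM of SNRPA1, WDR77 and HNRNPA1 in each of the 12 libraries, by group; markers give the replicate number, and bars give the mean ± SD of 3 libraries. Within each replicate number, the libraries with NH4Cl are above control for SNRPA1 and below it for WDR77 and HNRNPA1.

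Genes beside SMN1 and SMN2 on chromosome 5 were looked at in 2 lists. Among 6 other genes with near-identical copies there, 2 had a mean of at least 1 FPKM, and 0 of these were called by limma in any comparison with or without the block, and 0 at an unadjusted p under 0.05. SERF1B had 37, 97 and 24 reads in control, 111, 31 and 138 with TGF-β, 285, 25 and 48 with NH4Cl and 84, 99 and 65 under both agents. Its reads varied within every group and did not set control apart. Reads on its copy SERF1A ran from 6 to 16, on GTF2H2 from 96 to 173, on GTF2H2C from 93 to 196, on GTF2H2B from 18 to 51 and on NAIP from 3 to 13. Of 11 single-copy neighbours, limma without the block gave 0 with NH4Cl against control, 1 with both against control and 2 in the combined group against TGF-β at an unadjusted p under 0.05, beside 1333, 1618 and 1642 of all 12341 genes. With the block it called 1 higher with NH4Cl against control, 1 higher with both against control and 2 higher in the combined group against TGF-β, beside 13.6%, 18.4% and 18.8% of all genes. CDK7, a kinase of transcription, was called each time, with a log2 fold change of 0.23 with NH4Cl against control and a limma adjusted p of 0.0174 with the block and 0.738 without it, higher in 3 of 3 replicates. MRPS36, a mitochondrial protein gene, gave 0.31 in the combined group against TGF-β, with a limma adjusted p of 0.0312 with the block and 0.168 without it, higher in 3 of 3 replicates. The median log2 fold change of the neighbours against control was 0.062 with NH4Cl, with single genes from -0.14 to 0.23. With TGF-β it was -0.036, from -0.088 to 0.033, with 1 of the 11 above 0, and with both it was 0.054, from -0.17 to 0.27.

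The genes with patterns closest to SMN1 were sought over the 12 libraries, by Pearson correlation after subtracting the mean of each replicate number. They were THOC5 (r 0.919), DNAJB11 (r 0.912), POP7 (r 0.885), PDK2 (r 0.881) and RBM41 (r 0.874). Without that subtraction the r values were 0.848 for THOC5, 0.883 for DNAJB11, 0.0948 for POP7, 0.730 for PDK2 and 0.825 for RBM41, so the place of POP7 rested on it. Their log2 differences between control and treated means ran from 0.097 to 0.19, against 1.55 for SMN1, so the likeness is in the shape of the pattern and not in its size. The SMN1 pattern includes the contrast of control with treated libraries by which the gene was chosen, so the list is a description. For SMN2 the closest were CBY1 (r 0.953), AGGF1 (r 0.924), AC092919.1 (r 0.910), TMED7 (r 0.902) and JRKL (r 0.885). Without the subtraction these were 0.873 for CBY1, 0.858 for AGGF1, 0.881 for AC092919.1, -0.0886 for TMED7 and 0.0860 for JRKL, so the places of TMED7 and JRKL rested on it. SMN1 and SMN2 themselves had an r of -0.017 over the same 12 libraries, and -0.091 without it. The libraries in these correlations share replicate numbers and treatments, and no p is given.

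Markers fixed for the colon epithelial label were read in the same table. EPCAM ran from 229 to 278 FPKM, KRT8 from 754 to 1102, KRT18 from 727 to 1180, KRT19 from 422 to 783, VIL1 from 81.5 to 101, CDH1 from 14.9 to 23.2 and CDX2 from 12.5 to 15.1. KRT20 was near 0, from 0.058 to 0.42. With the block, limma called 1 of 7 epithelial genes higher and 1 lower with NH4Cl against control, and 1 higher and 2 lower with both against control and in the combined group against TGF-β. Of all genes the block called 13.6%, 18.4% and 18.8% in these comparisons. The gene called higher with NH4Cl against control was VIL1, named after its values were seen, at 0.18 with a limma adjusted p of 0.0382 with the block and 0.296 without it, higher in 3 of 3 replicates. KRT19 gave a log2 fold change of -0.39 in that comparison, with a limma adjusted p of 1.31e-04 with the block and 0.522 without it, lower in 3 of 3 replicates. EPCAM gave 0.16 with both against control, with a limma adjusted p of 0.0232 with the block and 0.221 without it, higher in 3 of 3 replicates. CDH1 gave -0.20 in the same comparison, with a limma adjusted p of 0.0210 with the block and 0.663 without it, lower in 3 of 3 replicates.

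Markers of other cell types were low. The summed FPKM of 3 endothelial genes was 1.72, 1.93 and 4.17 in control, 1.88, 1.56 and 4.35 with TGF-β, 2.70, 2.99 and 5.85 with NH4Cl and 2.66, 2.81 and 6.84 under both agents. VWF made up most of it, while PECAM1 stayed at or under 0.091 FPKM and CDH5 at or under 0.36. VWF was called higher with NH4Cl against control with the block, at a log2 fold change of 0.46 and a limma adjusted p of 0.00423, against 0.799 without the block, higher in 3 of 3 replicates. It was also called higher with the block with both against control, at 0.47 with a limma adjusted p of 0.00300, against 0.724 without it, and in the combined group against TGF-β, at 0.52 with a limma adjusted p of 0.00181, against 0.675 without it, each higher in 3 of 3 replicates. The part of these markers in the SMN1 values was not tested. The sum over 4 fibroblast genes ran from 1.29 to 2.97 FPKM with COL1A1 the most abundant, and 1 of them was tested. Limma called 0 of this 1 with or without the block, also at an unadjusted p under 0.05 without it, beside at most 1.03% of all genes without the block and 18.8% with it. The sum over 3 immune genes ran from 0.289 to 1.13 FPKM with CD14 the most abundant, and none reached the mean needed for a test. PTPRC was not analysed here.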

How the data were processed

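RNA-seq of 12 HCT116 libraries was used in 4 groups of 3, with groups and replicate numbers from the labels and doses from the study's methods, in part from its general culture section. The authors deposited FPKM for 25733 genes, and all per-sample columns were used. The submitters' processing notes list Trimmomatic 0.36, STAR 2.5.2b, featureCounts of Subread 1.5.2, DESeq2 and GRCh38/hg38, while the methods name HTSeq and DESeq2. RNA was extracted with RNeasy Plus Mini according to the labels and with PureLink according to the methods. Read length, strandedness and the treatment of reads with several matches are not given in the sources used here.

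Genes were matched by identifier to GENCODE release 29. FPKM times exon length and a scale factor per library was a whole number of reads for 100% of values, within 0.02 of a read. This gave reads per gene. The scale factor was not the number of reads on genes. Genes with mean FPKM of at least 1 (12341) were fitted with limma 3.58.1 in R 4.3.3 on log2 of FPKM + 1, with an intensity trend, 4 group means, two-sided tests and Benjamini-Hochberg adjustment across all genes tested, at 0.05. The fit without the block was checked on simulated data that held no replicate effect, and the fit with the block was not checked in this way. SMN1, SMN2 and their sum were not tested against control. Libraries with the same replicate number were correlated after removing group means, with r from 0.349 to 0.774 over 18 pairs. The r ran from 0.349 to 0.431 in replicate 1, 0.446 to 0.533 in replicate 2 and 0.702 to 0.774 in replicate 3. The replicate number was therefore also used as a block.

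Named genes are the SMN complex list, at most 3 genes of each other list past the threshold with or without the block, and the 5 genes most like SMN1 and the 5 most like SMN2. TRDD3, SDSL and VIL1 were named after their values were seen. The members and lists were chosen with earlier results of these data known. SNRPN and PTPRC were not analysed here. Alternatives were a pseudocount of 0.1, no filter, a mean FPKM of at least 5, scaling to the same sum (TPM), centring on the median, only the compared groups, the block, no intensity trend, both copies as 1 gene, and leaving out each library. The block without any library numbered 3 was chosen after seeing the data. Python 3.11.15 was used with numpy 2.4.6, pandas 2.3.3, statsmodels 0.14.6 and matplotlib 3.10.9.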

Additional observations from a re-analysis of the deposited data

How the results depend on the processing

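Alternatives to the limma settings left the count of partner genes called at 0 in each comparison, except that the replicate block called 1, GEMIN2, in the combined group against TGF-β. With the block but no library numbered 3, a setting that was chosen after seeing the data, that count was 0. Leaving out any 1 library was done without the block, where the count was 0 with all libraries and in each such fit, so it does not bear on that call. Over all genes these fits called 0 to 29 with NH4Cl against control (47 with all libraries), 2 to 57 with both against control (117) and 3 to 133 in the combined group against TGF-β (127), so the shares of all genes called without the block depended on single libraries. For named genes, 942 values kept their direction and side of the threshold, 36 passed it only under an alternative and 46 changed sign. For SMN1, SMN2, their sum and share, 203 kept their direction or moved by less than the spread between replicates. Another 9, all in comparisons without control, changed sign. Against control only the size of a move was judged, so sign changes of SMN2 there are among the 203. With a minimum mean of 5 FPKM, SMN2 and other genes below it have no value. SMN1 passed that minimum only through control, with a mean of 12.6 FPKM there and 3.39 over the treated libraries.

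Centring each library on its median changed the sign of GEMIN4 to -0.0016 with NH4Cl and to -0.0077 with both against control, of GEMIN5 to -0.0036 with TGF-β against control, and of GEMIN6 to -0.0021 in the combined group against TGF-β. The cause was not tested.

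Leaving out 1 library at a time changed the sign of some log2 values. With NH4Cl against control the range was -0.16 to 0.049 for DDX20, -0.12 to 0.15 for GEMIN4, -0.35 to 0.026 for GEMIN5 and -0.00052 to 0.15 for GEMIN6. With TGF-β against control it was -0.067 to 0.13 for GEMIN4, -0.18 to 0.11 for GEMIN5, -0.019 to 0.091 for GEMIN6 and -0.087 to 0.0095 for GEMIN8. With both against control it was -0.12 to 0.16 for GEMIN4, -0.31 to 0.020 for GEMIN5, -0.013 to 0.13 for GEMIN6 and -0.33 to 0.069 for HNRNPM. In the combined group against TGF-β it was -0.052 to 0.10 for DDX20, -0.17 to 0.0998 for GEMIN4, -0.24 to 0.018 for GEMIN5, -0.036 to 0.078 for GEMIN6, -0.034 to 0.063 for GEMIN8, -0.15 to 0.017 for SMN1, -0.075 to 0.21 for SMN2 and -0.11 to 0.12 for their sum. Against NH4Cl it was -0.15 to 0.053 for DDX20, -0.14 to 0.15 for GEMIN4, -0.15 to 0.18 for GEMIN5, -0.090 to 0.060 for GEMIN6, -0.0062 to 0.087 for GEMIN7, -0.029 to 0.0073 for STRAP, -0.039 to 0.14 for SMN2 and -0.069 to 0.029 for the sum. SMN1 against NH4Cl kept its sign but ran from -0.19 without combined replicate 3 to -0.017 without NH4Cl replicate 3. GEMIN2 against control also kept its sign, from 0.011 without control replicate 1 to 0.098 without NH4Cl replicate 1 with NH4Cl, and from 0.083 without control replicate 1 to 0.17 without control replicate 2 with both. For SMN2 against control the range was -0.042 to 0.11 with NH4Cl, -0.11 to 0.17 with TGF-β and -0.0029 to 0.17 with both. The SMN1 difference from control stayed negative without any 1 library, from -1.96 with both to -1.25 with NH4Cl, the first without control replicate 2 and the second without control replicate 3.

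Leaving out 1 library, in fits without the block, also moved genes called only with it. With NH4Cl against control, the range was 0.17 to 0.77 for VWF, 0.059 to 0.36 for CDK7, -0.38 to -0.041 for HNRNPM, -0.26 to -0.071 for TRA2B, -0.41 to -0.18 for WDR77 and -0.54 to -0.24 for KRT19, with both ends without NH4Cl or control replicate 3. With both against control, it was 0.093 to 0.77 for VWF, 0.13 to 0.40 for CDK7, -0.28 to -0.050 for TRA2B, -0.42 to -0.17 for WDR77, -0.44 to -0.13 for KRT19 and -0.30 to -0.069 for CDH1, with both ends, and those of HNRNPM, without combined or control replicate 3. MIB1 ran from 0.13 without combined replicate 3 to 0.33 without combined replicate 1, and NCBP1 from -0.27 without control replicate 3 to -0.11 without control replicate 1. In the combined group against TGF-β, it was 0.15 to 0.87 for VWF, -0.28 to -0.019 for TRA2B, -0.44 to -0.12 for KRT19 and -0.29 to -0.054 for CDH1, with both ends without combined or TGF-β replicate 3. CDK7 was 0.20 and MIB1 0.18 without combined replicate 3, HNRNPA1 was -0.081 without TGF-β replicate 3, and WDR77 ran from -0.45 without TGF-β replicate 3 to -0.16 without TGF-β replicate 1.

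The limits are 3 libraries a group, labels that do not say whether they were separate cultures, and gene totals that cannot show which copy a shared read came from. SMN2 had as few as 103 reads in a library.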
